A study of Xenopus laevis with 4 samples.

Results

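Immediate early genes are transcribed within minutes of a stimulus without new protein synthesis, and several of them encode transcription factors. The proteins of the *fos* and *jun* genes pair through leucine zippers to form AP-1, which binds DNA as a dimer, while *egr1* encodes a zinc finger factor. In neurons they follow electrical and synaptic activity through calcium and MAP kinase signalling. In embryos, growth factors such as FGF and wounding of tissue induce them too. The 10 gene models described here are the L and S copies (homeologs) of *egr1*, *fos*, *fosb*, *jun* and *junb* in the allotetraploid frog *Xenopus laevis*. They were found by their RefSeq symbols among 39176 gene models, and all 10 had counts in every library.

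RNA was sequenced from the posterior part of tailbud embryos at stage 26, cut behind the ear vesicle, after 3 h in culture. The picrotoxin group received 0.5 mM of the drug, a blocker of the chloride channel of GABA-A receptors, and the control group did not. Whether control explants received a vehicle is not given in the sources used here. Each group had 2 libraries, each from explants of 3 embryos pooled after removal of the ventral yolk. No strain or allele is given, so the only labelled difference between the groups is the drug. All explants of both groups had been cut from the embryo, and no uncut embryo is among the samples analysed here.

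Library totals were 20285273 and 20974160 estimated counts in picrotoxin replicates 1 and 2, and 18164631 and 20660589 in control replicates 1 and 2. Ribosomal RNA took 42.0% and 25.1% of the picrotoxin libraries and 38.0% and 39.6% of the control libraries, so picrotoxin replicate 2 stood apart. Markers of neural tube, skeletal muscle, epidermis and notochord were detected in all libraries. Of 13 forebrain and eye marker models 5 were tested, with a summed level of 12.3 to 16.5 CPM, and of 8 heart marker models 1 was. Levels are CPM (counts scaled to a common library size) after TMM scaling of the libraries. They are not divided by transcript length, since no lengths were at hand, so levels of different genes are not compared. The sequences of these genes were not analysed here.

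The *egr1* and *fos* copies had the most negative fold changes of the members with picrotoxin, and *egr1.L* passed the test. Counts were compared between the groups with edgeR's quasi-likelihood test over 26752 genes, and a gene was called at a Benjamini-Hochberg adjusted p under 0.05. Of the 9 members tested, 1 was called lower, 0 were called higher and 3 had an unadjusted p under 0.05. DESeq2 also called 1, a different copy (*fos.L*), of the 8 members to which it gave an adjusted p. Over the 19234 genes with an adjusted p from DESeq2, it called 8 lower and 14 higher. Over all genes tested with edgeR, 0.0935% were called lower and 0.0822% higher with picrotoxin. An unadjusted p under 0.05 was found for 7.51% of all genes tested. The log2 fold change (picrotoxin over control) was negative for 8 of the 9, against 50.1% of all genes, with a median of -0.52 against 0.00 over all genes. The members are copies of 5 genes, chosen with earlier results of these data known. Shares of members or pairs set beside those of all genes, here and below, are therefore descriptive only.

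*egr1.L*, the copy on chromosome 3L, had 3.57 and 5.57 CPM in picrotoxin replicates 1 and 2, against 11.1 and 9.23 CPM in control replicates 1 and 2. Both picrotoxin libraries lay below both control libraries. The means were 4.57 ± 1.41 CPM with picrotoxin and 10.2 ± 1.31 CPM in control (SD, n = 2 each), or a level 0.458 times that of control. The log2 fold change was -1.13 ± 0.19 (SE), with a 95% interval of -1.52 to -0.73 and an adjusted p of 0.0110 from edgeR. Among the 16022 genes averaging 5 CPM or more, 4 had a lower log2 fold change. The picrotoxin mean of *egr1.L* lay below that cut, and scarcer genes were not ranked. *egr1.L* no longer passed when control replicate 1 (log2 fold change -0.99) or control replicate 2 (-1.26) was left out. It still passed when picrotoxin replicate 1 (-0.86) or picrotoxin replicate 2 (-1.50) was left out.

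*egr1.S*, on chromosome 3S, had 2.77 and 2.47 CPM in the picrotoxin libraries and 6.59 and 3.73 CPM in the control libraries. The groups did not overlap here either, but control replicate 1 stood well above control replicate 2. The log2 fold change was -0.97 ± 0.25 (SE) and did not pass (edgeR, adjusted p = 0.196). Without control replicate 1 it was -0.51 (adjusted p = 0.966). With both copies summed, *egr1* had 6.33 and 8.06 CPM with picrotoxin and 17.6 and 12.9 CPM in control. That sum gave a log2 fold change of -1.07 ± 0.17 (SE), which passed (edgeR over 20505 genes, adjusted p = 0.00972).

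**Figure D1:**
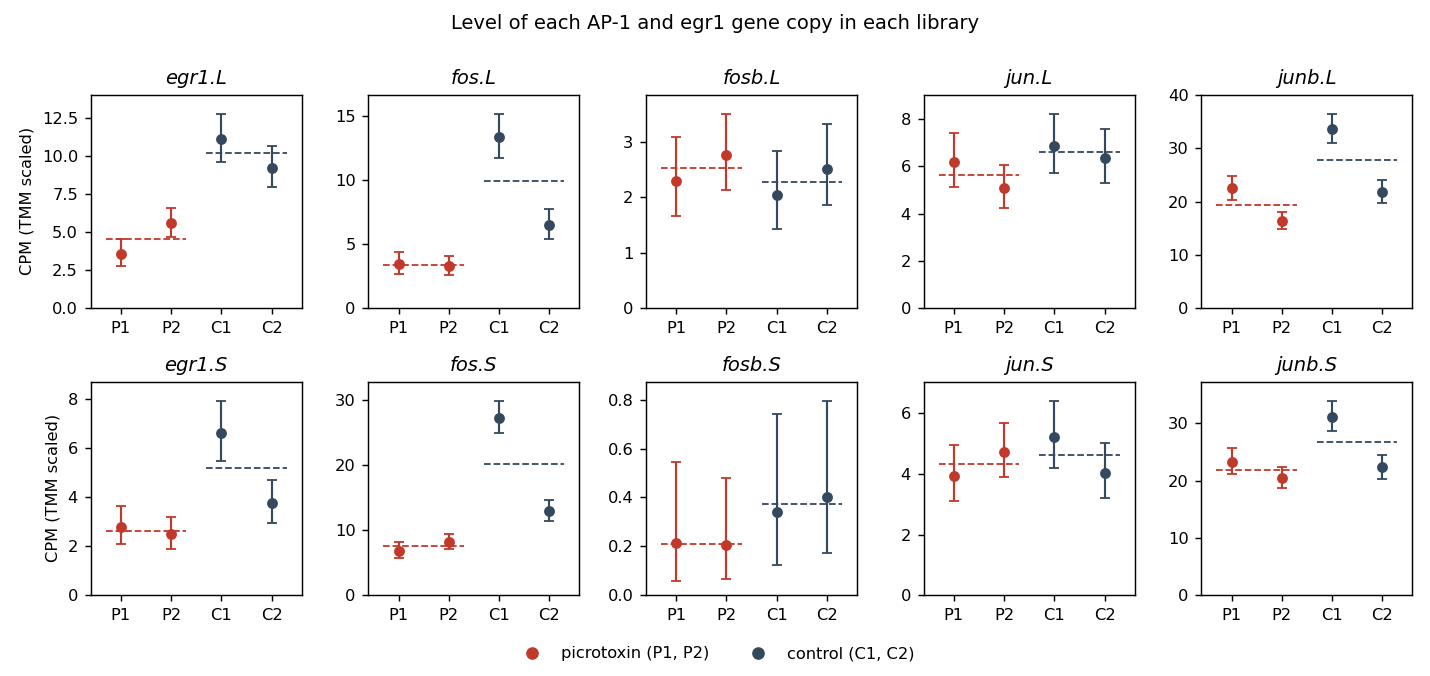
CPM of each of the 10 gene copies (panels; linear axes from 0) in picrotoxin replicates 1 and 2 (P1, P2) and control replicates 1 and 2 (C1, C2), with exact Poisson 95% intervals that cover counting error only and the group mean as a dashed line. The *egr1* and *fos* copies lie lower in both picrotoxin libraries than in both control libraries, and *fos.L* in control spans 13.4 and 6.51 CPM.

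The *fos* gene encodes the partner of Jun proteins in AP-1 that is most sharply induced in stimulated cells, and its RNA is short-lived. *fos.L* had 3.46 and 3.26 CPM in the picrotoxin libraries, against 13.4 and 6.51 CPM in control replicates 1 and 2. The picrotoxin pools lay close together and below both control pools, and the control pools differed from each other by more than counting error. Their exact Poisson 95% intervals were 11.7 to 15.2 and 5.43 to 7.73 CPM, from 235 and 129 counts.

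*fos.S* showed the same order, with 6.82 and 8.16 CPM in the picrotoxin libraries and 27.3 and 13.0 CPM in control replicates 1 and 2. The groups did not overlap for this copy either. The means of *fos.S* were 7.49 ± 0.95 CPM with picrotoxin and 20.2 ± 10.1 CPM in control (SD, n = 2 each). The control SD is thus large beside the difference.

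The log2 fold change was -1.55 ± 0.41 (SE) for *fos.L*, with a 95% interval of -2.64 to -0.47. No gene of the 16022 averaging 5 CPM or more had a lower one. The picrotoxin mean of *fos.L* (3.36 CPM) lay below that cut, which its control mean (9.93 CPM) let it pass. Scarcer genes were not ranked, so *fos.L* is not called the lowest of all genes tested. For *fos.S* the log2 fold change was -1.41 ± 0.53 (SE), with an interval of -3.37 to 0.55. Neither copy passed in edgeR's test (adjusted p = 0.504 for *fos.L* and 0.743 for *fos.S*).

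Whether *fos.L* passed differed between settings. The robust option of edgeR lets a gene whose pools differ far more than the trend keep its own variance, and it left *fos.L* with 4.45 degrees of freedom and *fos.S* with 2.41, against a median of 24.2 over all genes. Without that option, tried after the values were seen, the adjusted p was 0.0677 for *fos.L* and 0.0789 for *fos.S*, and that of *egr1.L* was 0.0674. With DESeq2, *fos.L* passed (adjusted p = 0.00860), while *egr1.L* (adjusted p = 0.0667) and *fos.S* (adjusted p = 0.915) did not. With the replicate number as a block *fos.L* passed (adjusted p = 0.00797), as it did without a filter on low counts (adjusted p = 2.5e-12) and with library totals in place of TMM (adjusted p = 6.2e-05). With library totals *fos.S* passed too (adjusted p = 0.000440), while *egr1.L* did not (adjusted p = 0.0641).

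The size of the *fos* difference moved with the control library used. When control replicate 1 was left out, the log2 fold change was -0.95 for *fos.L* (edgeR, adjusted p = 0.201) and -0.79 for *fos.S* (edgeR, adjusted p = 0.0861). When control replicate 2 was left out, it was -1.99 for *fos.L* (edgeR, adjusted p = 0.000867) and -1.86 for *fos.S* (edgeR, adjusted p = 0.000129). Leaving out picrotoxin replicate 1 or 2 gave -1.59 and -1.50 for *fos.L*, and neither value passed. The direction for both copies was negative in each of these fits.

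**Figure D2:**
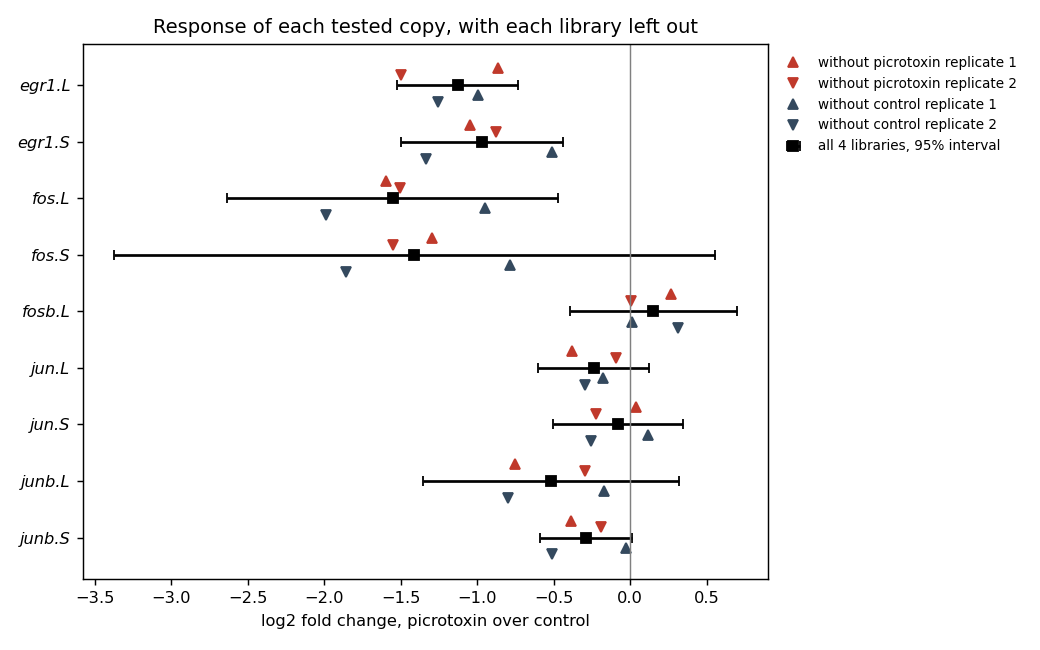
Log2 fold change of picrotoxin over control for the 9 tested copies, with all 4 libraries (black squares, 95% interval) and with each library left out (triangles). The point estimates of the *egr1* and *fos* copies stay below 0 throughout, while the interval of *fos.S* reaches 0.55. The *fos* copies move most with the control library left out. *jun.S* and *fosb.L* lie near 0, *jun.S* changing sign without control replicate 1 or without picrotoxin replicate 1.

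The *jun* gene encodes the AP-1 subunit that can also pair with itself, and *junb* a related subunit with weaker transactivation. *junb.L* had 22.5 and 16.4 CPM in picrotoxin replicates 1 and 2 and 33.6 and 21.8 CPM in control replicates 1 and 2. The groups overlapped, since picrotoxin replicate 1 lay above control replicate 2. Its log2 fold change was -0.52 ± 0.29 (SE; edgeR, adjusted p = 0.802). It too had few degrees of freedom (3.78), and without a filter on low counts it passed (adjusted p = 0.0103).

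*junb.S* had 23.3 and 20.5 CPM with picrotoxin and 31.2 and 22.3 CPM in control. The groups overlapped again, with control replicate 1 apart from the other libraries. The log2 fold change was -0.29 ± 0.14 (SE; edgeR, adjusted p = 0.681). Without control replicate 1, *junb.L* was at -0.17 and *junb.S* at -0.03.

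*jun.L* had 6.18 and 5.07 CPM in the picrotoxin libraries and 6.88 and 6.35 CPM in the control libraries. The groups did not overlap, but the gap between them was smaller than the distance between the picrotoxin pools. Its log2 fold change was -0.24 ± 0.18 (SE; edgeR, adjusted p = 0.826), with a 95% interval of -0.60 to 0.12. *jun.S* had 3.94 and 4.74 CPM with picrotoxin and 5.23 and 4.03 CPM in control. The groups overlapped, and the log2 fold change was -0.08 ± 0.21 (SE; edgeR, adjusted p = 0.969), with an interval of -0.51 to 0.35. Those intervals leave out a change the size of that in *egr1.L*, but not a moderate one.

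*fosb* encodes a Fos family protein that in mammals also exists as a truncated, long-lived form made by splicing. *fosb.L* had 2.29 and 2.76 CPM with picrotoxin and 2.05 and 2.52 CPM in control. The groups overlapped, and it was the single tested member with a positive log2 fold change (0.15 ± 0.26 SE; edgeR, adjusted p = 0.949; interval -0.40 to 0.69). Its counts were spread over 3 transcript models in proportions that differed between libraries of 1 group, so no isoform is compared. *fosb.S* had 4 and 5 counts in the picrotoxin libraries and 6 and 8 in the control libraries, too few to be tested. Without a filter on low counts its log2 fold change was -0.82 ± 0.76 (SE; edgeR, adjusted p = 0.925).

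In all, 5 of the 9 tested members had both picrotoxin libraries below both control libraries, against 18.9% of all genes tested, and 4 overlapped. These 5 were both *egr1* copies, both *fos* copies and *jun.L*. No tested member had both picrotoxin libraries above both control libraries, as 18.2% of all genes did. As the members were chosen with earlier results known and include both copies of a gene, these shares only describe them.

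The members also differed between the pools of a group, and chiefly between the control pools. Control replicate 1 was above control replicate 2 for 8 of the 9 tested members, against 50.2% of all genes, the exception being *fosb.L*. The median difference was 0.48 on the log2 scale over the members and 0.00 over all genes. The difference was 1.03 for *fos.L* and 1.07 for *fos.S*. Of the genes averaging 5 CPM or more, 0.112% had control pools as far apart as those of *fos.L*, and 0.0936% as far apart as those of *fos.S*.

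*egr1.S* (0.80), *junb.L* (0.62) and *junb.S* (0.48) followed in the distance between control pools, while *egr1.L* differed by 0.26. Between picrotoxin replicates 1 and 2, the median difference of the members was 0.09, and 5 of the 9 were higher in replicate 1. The *fos.L* pools differed there by 0.09, a distance reached by 64.2% of the genes with at least 5 CPM. The widest gap between picrotoxin pools belonged to *egr1.L*, lower in replicate 1 by a log2 difference of -0.63, a distance reached by 1.45% of those genes. The order of the pools in *egr1.L* was thus opposite in the picrotoxin and the control group.

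**Figure D3:**
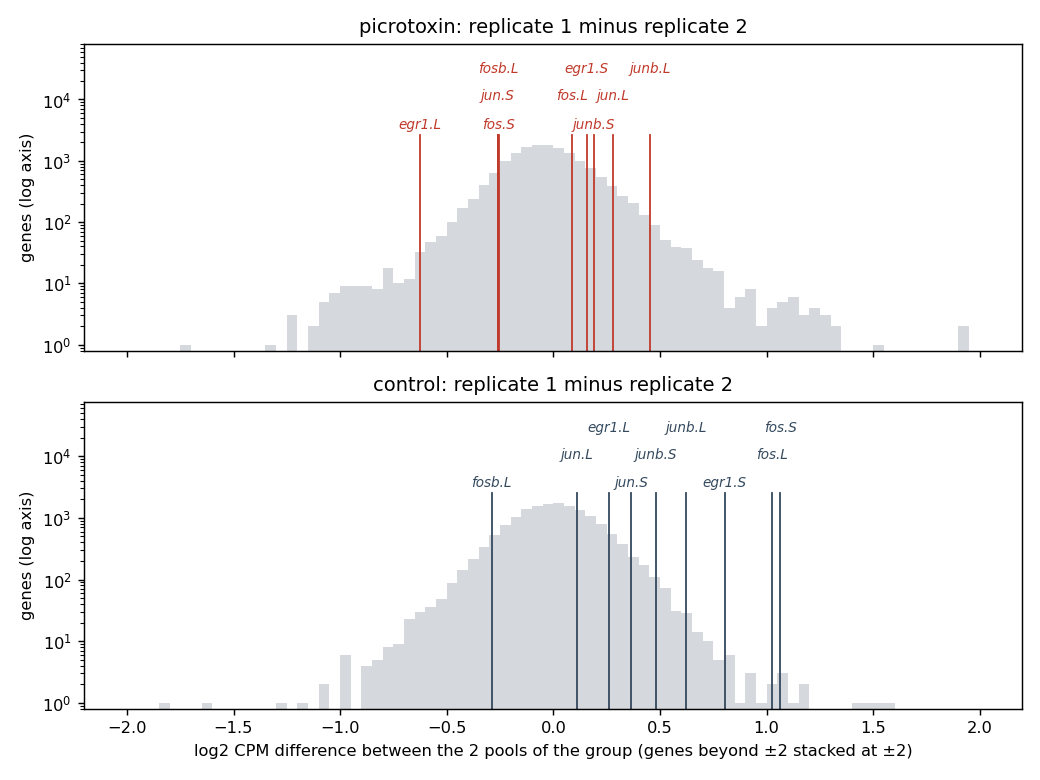
Difference in log2 CPM between replicate 1 and replicate 2 of the picrotoxin group (top) and the control group (bottom) for the genes averaging 5 CPM or more (grey, number of genes on a log axis) and for the 9 tested members (lines). Both *fos* copies lie at the edge of the control distribution, at 1.03 and 1.07, and within the bulk of the picrotoxin distribution.

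Markers of several tissues were set beside these values. The summed level of the neural tube markers was 327 and 294 CPM in picrotoxin replicates 1 and 2 and 413 and 368 CPM in control replicates 1 and 2. Of the 14 neural tube marker models, all tested, 13 had a negative log2 fold change, with a median of -0.27. Both picrotoxin libraries lay below both control libraries for 8 of the 14, against 18.9% of all genes, and above for 0. The members had 5 of 9 below and 0 above. None of the 14 neural tube models was called by edgeR or DESeq2. Of these models 8 had an unadjusted p under 0.05 in edgeR, against 7.51% of all genes tested. The part of neural tissue content in the member values was not tested, and fewer cells of a type cannot be told apart from less RNA per cell in these pools.

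Myeloid markers, 10 models, summed to 152 and 81.1 CPM with picrotoxin and 114 and 146 CPM in control. The sums were 8903 and 7838 CPM against 9884 and 8180 CPM for skeletal muscle (14 models), and 7395 and 8170 against 7090 and 6743 CPM for epidermis (11 models). Of the epidermis models 9 had a positive log2 fold change, and the keratin gene copy *krt12.5.S* rose (0.80; edgeR, adjusted p = 0.000593), the single marker called. The part of epidermis content in the member values was not tested. Over 7 notochord models they were 450 and 442 against 453 and 419 CPM. Endoderm markers, 9 tested models, summed to 516 and 748 CPM with picrotoxin and 699 and 635 CPM in control, and blood markers, 4 tested models, to 38.1 and 37.3 against 43.0 and 35.4 CPM.

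No difference in response between L and S copies was detected. Both copies had a negative log2 fold change in all 4 pairs with both copies tested, against 30.6% of 6348 pairs over all genes. Both copies were lower in each picrotoxin library than in each control library for 2 pairs, *egr1* and *fos*, against 6.84% of all pairs. The difference in response was tested as the change in the log2 ratio of L to S within each library, with limma over all 6348 pairs. No member pair was called, and none had an unadjusted p under 0.05, while 0.11% of all pairs were called.

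For *egr1* the L copy minus the S copy was -0.27 ± 0.29 (SE; limma, adjusted p = 0.972), with a 95% interval of -0.88 to 0.35. For *fos* it was -0.12 ± 0.21 (adjusted p = 0.980; interval -0.56 to 0.32). For *jun* it was -0.15 ± 0.26 (adjusted p = 0.980; interval -0.70 to 0.40), and for *junb* -0.22 ± 0.15 (adjusted p = 0.918; interval -0.53 to 0.08). The intervals do not show that the copies act alike, but each leaves out a difference of 1 on the log2 scale.

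The share of the L copy in the counts of a pair overlapped between groups for *egr1*, *fos* and *jun*, and not for *fosb* and *junb*. How often such shares separate over all pairs was not computed, so the separation is not read as a result. For *junb* the nearest shares were 49.1% in picrotoxin replicate 1 and 49.4% in control replicate 2. For *fos* the L copy had 33.7% and 28.5% of the counts in picrotoxin replicates 1 and 2 and 32.8% and 33.3% in control replicates 1 and 2. The Wilson 95% intervals of these 4 shares all overlapped, the widest spanning 27.4% to 40.6%. Control replicate 1 therefore had more *fos* from both copies in nearly the same ratio. For *egr1* the L copy had 56.3% and 69.2% with picrotoxin and 62.7% and 71.2% in control, with the lower share in replicate 1 of both groups. The Wilson interval of picrotoxin replicate 1 (47.3% to 64.9%) did not reach that of control replicate 2 (65.4% to 76.4%).

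For *junb* the L share was 49.1% and 44.5% with picrotoxin and 51.9% and 49.4% in control, with the intervals of picrotoxin replicate 2 (41.2% to 47.7%) and control replicate 1 (49.0% to 54.8%) apart. For *jun* it was 61.1% and 51.7% against 56.8% and 61.2%. For *fosb* the L copy had 91.5% and 93.1% of the counts with picrotoxin and 85.7% and 86.2% in control, from 42 to 72 counts a library. A share reflects transcript lengths as well as levels, so only its differences between libraries are read.

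The decimals of the estimated counts give a partial view of how the counting separated the copies. The estimated counts of both *fos* copies were whole numbers in all 4 libraries, within 0.001. Those of *egr1.L* were fractions in both control libraries and summed to a whole number with *egr1.S*, as reads divided between the copies would give, and those of the *jun* copies did so in picrotoxin replicate 2. The *junb.S* value was fractional in 3 libraries while that of *junb.L* was whole, and both *fosb* copies were fractional in every library. Whole values were found for 44.3% to 46.8% of all transcripts in a library, zeros included. A whole value does not show that no reads were shared, which was not tested. The level of single copies is uncertain at least where values were fractional.

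**Figure D4:**
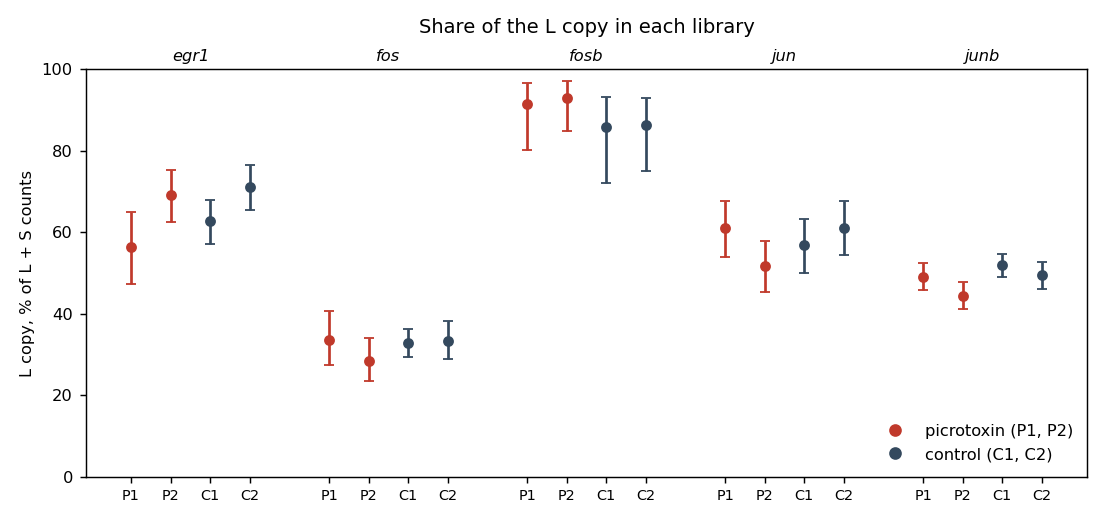
Counts of the L copy as a percentage of the L and S counts of each gene in picrotoxin replicates 1 and 2 (P1, P2) and control replicates 1 and 2 (C1, C2), with Wilson 95% intervals that cover counting error only. The share of *fos* lies between 28.5% and 33.7% in all libraries, although control replicate 1 held the most *fos* counts.

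Chromosome-wide shifts were small beside the values of the *egr1* and *fos* copies. The median log2 fold change over all tested genes was 0.02 on 3L and 0.00 on 3S, 0.01 on 4L and 0.07 on 4S, and -0.05 on 8L and 0.02 on 8S, where *fos.L* and *fosb.L* lie on 8L and *fos.S* on 8S. Between control replicates 1 and 2 the chromosome medians were 0.10 on 8L and 0.09 on 8S, small beside the 1.03 and 1.07 of the *fos* copies.

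None of the other gene lists of the pathway held a call. Over all genes tested edgeR called 0.176%, so 0 calls in lists of this size are not read as a result. Among the other immediate early genes 62 models were tested, and 0 passed in either direction with edgeR or DESeq2. An unadjusted p under 0.05 in edgeR was found for 10 of them, against 7.51% of all genes. Their median log2 fold change was -0.14, with 43 negative, against 50.1% of all genes. Both picrotoxin libraries lay below both control libraries for 25 of the 62, against 18.9% of all genes, and above for 2, against 18.2%. Control replicate 1 was above control replicate 2 for 34 of them, with a median difference of 0.02, against 8 of the 9 members and 0.48. That order was not particular to the members. It held for 11 of 14 neural tube, 8 of 9 endoderm and 6 of 7 notochord marker models (medians 0.16, 0.14 and 0.19). It held for 4 of 11 epidermis and 0 of 10 myeloid marker models, and for 5 of 23 other AP-1 family models.

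The 4 with the smallest p were *gadd45g.S*, a growth arrest gene, *klf2.S*, a Krüppel-like factor gene, *ccn2.L*, which encodes a secreted matricellular protein, and *ier2.L*. *gadd45g.S* had 5.81 and 5.65 CPM with picrotoxin and 8.64 and 9.03 CPM in control (log2 fold change -0.63 ± 0.16 SE; edgeR, adjusted p = 0.171). *klf2.S* had 1.07 and 0.70 CPM with picrotoxin and 2.10 and 2.27 CPM in control (-1.33 ± 0.34 SE; edgeR, adjusted p = 0.173). In both of these genes the control pools lay close together, unlike those of *fos*. The other copy, *klf2.L*, had 0.43 and 0.29 CPM with picrotoxin and 1.19 and 0.76 CPM in control (-1.45 ± 0.51 SE; edgeR, adjusted p = 0.435). *ccn2.L* was at -0.34 and *ier2.L* at -0.48 (edgeR, adjusted p = 0.379 for both). Control replicate 1 was above control replicate 2 for *ier2.L* and *klf2.L*, by 0.36 and 0.59 on the log2 scale. It was not for *ccn2.L* (-0.14). The neuronal activity gene copies *npas4.L* and *arc.L* had at most 2 and 1 counts in a library and could not be tested. Others of the list could be, such as *nr4a1.L* (-0.39), *nr4a1.S* (-0.42), *homer1.L* (-0.25), *homer1.S* (-0.07) and *bdnf.S* (-0.05). In each of these the groups overlapped, and none passed in edgeR.

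The other AP-1 family factors, a list that takes in the Maf genes, had a median log2 fold change near 0. Of 23 models tested, 0 passed with edgeR or DESeq2, 1 had an unadjusted p under 0.05, and the median was 0.03. The lowest p belonged to *mafa.S* (0.35), *mafg.L* (-0.70), *atf3.L* (0.31) and *maf.L* (-0.42). *atf3.L*, whose product is a stress-induced partner of Jun proteins, had 9.54 and 7.17 CPM with picrotoxin and 6.42 and 6.96 CPM in control, and did not pass (edgeR, adjusted p = 0.723).

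The other EGR factors were scarce. *egr2.L*, best known from the hindbrain and the neural crest, was at 0.59 and 0.74 CPM with picrotoxin and 1.02 and 0.61 CPM in control (log2 fold change -0.26 ± 0.46 SE; edgeR, adjusted p = 0.948). The *egr3* and *egr4* copies had at most 5 counts in a library, and the *nab2* copies at most 10. Of the genes for NAB corepressors, which bind Egr proteins, *nab1.L* was at 0.29 and *nab1.S* at 0.15. None of the 3 models tested in this group passed with edgeR or DESeq2, or had an unadjusted p under 0.05.

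Factors that switch immediate early genes on were tested with 24 models, which cover SRF, the ternary complex factors and CREB. None passed with edgeR or DESeq2, 2 had an unadjusted p under 0.05, and the median was 0.09. Both picrotoxin libraries lay above both control libraries for 10 of the 24, against 18.2% of all genes, and below for 2, against 18.9%. The SRF coactivator gene copy *mrtfa.S* (0.36) and the ternary complex factor gene copies *elk4.S* (0.26) and *elk3.L* (0.39) had the smallest p on the positive side, and *creb1.L* was at -0.27.

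The MAP kinase cascade, 23 models, had 0 called with edgeR or DESeq2, 2 with an unadjusted p under 0.05 and a median of 0.05. Both picrotoxin libraries lay above both control libraries for 8 of the 23, against 18.2% of all genes, and below for 1, against 18.9%. The smallest p belonged to the JNK family gene copy *mapk10.S* (-0.62), and *rps6ka1.L* (0.27) and *map2k4.S* (0.21) were also among the lowest. *mapk10.S* had 2.98 and 2.97 CPM with picrotoxin and 5.74 and 3.48 CPM in control (edgeR, adjusted p = 0.508). The MAP kinase feedback genes, whose products damp the cascade, had a median of -0.03 over 17 models, with 0 called with edgeR or DESeq2 and 0 with an unadjusted p under 0.05. In that list *dusp7.S* was at 1.08 ± 0.57 (SE; edgeR, adjusted p = 0.702), *spry1.L* at -0.20, *dusp7.L* at 0.34 and *spry1.S* at -0.20. The value of *dusp7.S* rests on low levels, 0.59 and 0.66 CPM with picrotoxin and 0.23 and 0.35 CPM in control.

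**Figure D5:**
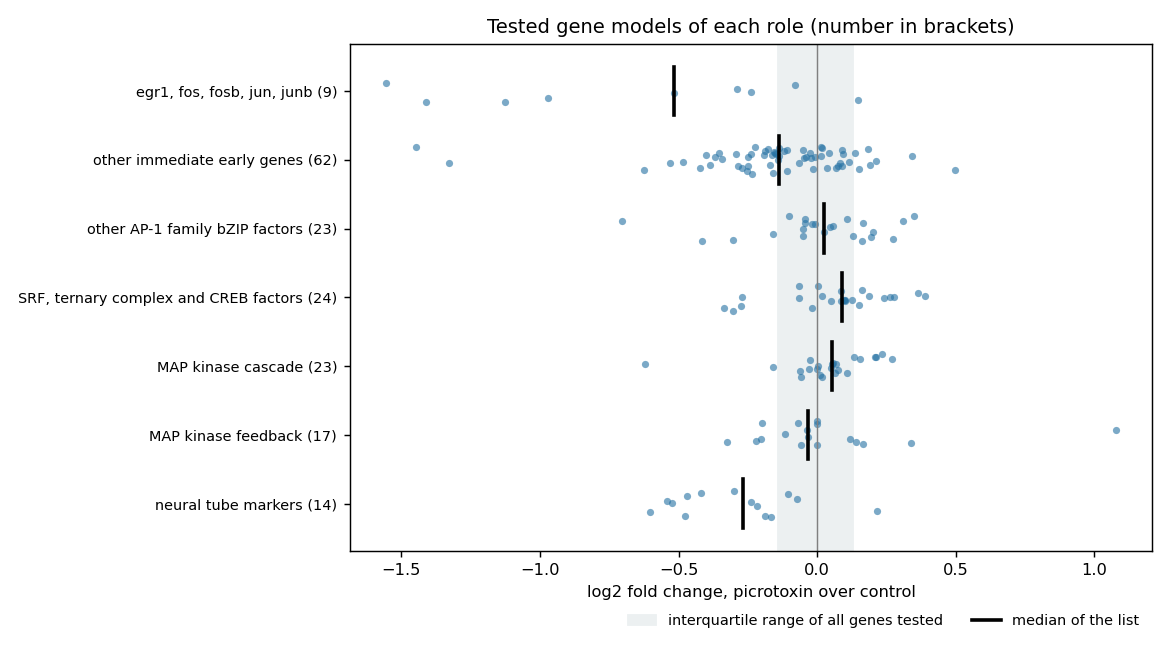
Log2 fold change of picrotoxin over control for the tested gene models of each role (points, shifted at random in height), the median of each list (black bar) and the interquartile range of all genes tested (grey band). Apart from the 4 *egr1* and *fos* copies, the tested members lie between -0.52 (*junb.L*) and 0.15 (*fosb.L*). The 62 other immediate early genes have a median of -0.14, with 43 negative, against 50.1% of all genes tested. Among them *klf2.L* (-1.45) and *klf2.S* (-1.33) lie lowest.

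The genes whose profile over the 4 libraries was most like that of a member were found by the Euclidean distance between centred log2 CPM values, among 16021 genes averaging 5 CPM or more. For *fos.L* the nearest was *fos.S* (distance 0.27), followed by LOC108700142 (0.33), *ocm4.8.L* (0.54), *fabp7.L* (0.68) and LOC108717871 (0.69), and *egr1.L* ranked 9 (0.79). LOC108700142 had 4.53 and 4.82 CPM with picrotoxin and 14.2 and 8.42 CPM in control. For *egr1.L* the nearest were *ckmt1b.S* (0.47), *has1.S* (0.49), LOC121403021 (0.51), LOC108700142 (0.51) and *entpd1.L* (0.54), while *fos.S* ranked 22. A likeness over 4 libraries rests on few values and shares the scaling of each library.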

How the data were processed

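Unscaled estimated counts for 80178 RefSeq transcripts, with a column for each library, are what the authors deposited. Per the labels, the library kit keeps strand. How reads were aligned and quantified, and on which genome build, is not stated in the sources used. All transcripts were found by identifier in the Xenopus_laevis_v10.1 annotation of RefSeq (used for names and chromosomes), summed per gene and rounded, in place of the raw counts that had been planned.

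After filterByExpr, libraries were scaled with TMM and tested with edgeR 4.0.16 (robust quasi-likelihood, two-sided, Benjamini-Hochberg over 26752 genes, threshold 0.05) in R 4.3.3. Standard errors come from the F statistic. L to S ratios were tested with limma 3.58.1 (prior count 2), and DESeq2 1.42.0 was an alternative. Both main tests were run on simulated data with every gene at the trended spread. That setting does not cover genes that vary more than the trend, such as the *fos* copies. All library pairs differed by more than sampling noise, but unevenly. Chi-square per degree of freedom was 55.0 between the picrotoxin libraries and 4.22 between the control libraries. Against control replicates 1 and 2 it was 7.57 and 5.84 for picrotoxin replicate 1, and 34.5 and 43.0 for picrotoxin replicate 2. That measure used library totals and included ribosomal RNA.

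With 2 pools per group, p-values rest on the spread between pools, moderated with that of other genes. The 20.5 degrees of freedom of *egr1.L* in edgeR include those borrowed from other genes. The clutches of the pools are not given. The labels do not say that replicate numbers pair the pools. Deviations of same-numbered libraries correlated at -0.02, which with 2 pools per group cannot show whether the pools were paired. Poisson and Wilson intervals (95%) cover counting error only. Members and lists were chosen with earlier results of these data known. Besides the members, named genes are up to 4 tested models of each role list with the smallest p and any called, and the 5 genes nearest in profile to *egr1.L* and *fos.L*. *klf2.L*, *krt12.5.S*, *npas4.L*, *arc.L*, *bdnf.S* and the *egr3*, *egr4*, *nab2*, *nr4a1* and *homer1* copies were named after their values were seen. One gene the rule took is not named.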

Additional observations from a re-analysis of the deposited data

How the results depend on the processing

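Across the reported fit and 13 alternatives the log2 fold change of *egr1.L* ran from -1.50 to -0.86, of *egr1.S* from -1.33 to -0.51, of *fos.L* from -1.99 to -0.95 and of *fos.S* from -1.86 to -0.79. The adjusted p of *egr1.L* ran from 1.3e-07 to 0.154 and that of *fos.L* from 2.5e-12 to 0.794. That of *egr1.S* ran from 0.00698 to 0.9998 and that of *fos.S* from 0.000129 to 0.915. The 47 calls over all genes (22 higher, 25 lower) became 11 and 11 with library totals only, 71 and 118 without a low-count filter, 14 and 8 with DESeq2, and 8 and 6 without the robust option (added after seeing the data). Leaving out 1 library gave 8 to 62 higher and 7 to 96 lower. Of the members, 2 were called with library totals (both *fos* copies), 4 without a filter, 0 without the robust option (5 with an unadjusted p under 0.05) and 0 to 2 with 1 library left out. The count of 0 came without control replicate 1, where 3 had an unadjusted p under 0.05 in edgeR. With the replicate block 2 members were called, *egr1.L* (adjusted p = 0.0340) and *fos.L*. The 7 pairs called for a difference between L and S became 26 with the replicate block and 2 to 17 with 1 library left out. *jun.S* turned to 0.037 with library totals, which shift the median of all genes by 0.11, and ran from -0.26 to 0.12 with 1 library left out. Likewise the L minus S difference ran from -0.66 to 0.13 for *egr1*, from -0.29 to 0.052 for *fos* and from -0.42 to 0.12 for *jun*. The causes were not tested. Where 1 library of a group was left, it was assumed to vary like the other group. With 4 to 8 counts a library, *fosb.S* is limited by depth.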
